A study of Mus musculus with 24 samples.

Results

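The peaks described here were open in wild-type stem cells and progenitors and were missing from the peak lists of both kinds of Daxx-KO progenitor. They were 2321 intervals of the Daxx-WT CMP list that overlapped, by at least 1 bp, an interval of the Daxx-WT GMP list and of the Daxx-WT LT-HSC list, and no interval of the Daxx-KO CMP or Daxx-KO GMP list. They made up 3.51% of the 66070 Daxx-WT CMP intervals and 5.79% of the 40074 that the 3 Daxx-WT lists shared. They are called lost peaks below, and the 31741 shared peaks (79.2%) with an interval in both Daxx-KO progenitor lists are called kept peaks. Another 2386 shared peaks were absent from the Daxx-KO CMP list alone and 3626 from the Daxx-KO GMP list alone. In all, 11.7% of shared peaks lacked an interval in the Daxx-KO CMP list and 14.8% lacked one in the Daxx-KO GMP list. Absence from these lists chose the peaks, so it is not a finding.

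Accessible chromatin was measured by ATAC-seq, in which a transposase cuts and tags open DNA, in 24 libraries of cells sorted from mouse bone marrow. The labels give the strain as C57BL/6, and per the methods the floxed Daxx line was C57BL/6N and the Cre and Pu.1 lines C57BL/6J, so the background was mixed and its share per animal is not given. All animals carried Cre (Cre +/-), and controls were Daxx +/+ and knockouts Daxx F/F (called Daxx-KO after induction). Progenitors of 2 kinds, CMPs (common myeloid) and GMPs (granulocyte-monocyte), and long-term haematopoietic stem cells (LT-HSCs) had 2 libraries per genotype, taken 3 weeks after tamoxifen in RosaCreER mice per the study's methods. LT-HSCs at 3 days post induction (d.p.i.) had 3 Daxx-KO and 2 Daxx-WT libraries, while the KLS population (Lin- cells with c-Kit+ and Sca-1+ staining), sorted 3 weeks post induction, had 3 Daxx-KO libraries, 2 Daxx-WT libraries and 2 libraries of Daxx F/F Pu.1 F/F mice (DKO). Per the methods, RosaCreER mice analysed at 3 d.p.i. received tamoxifen by injection, whereas those analysed at 3 weeks received it by gavage at another dose. The RosaCreER driver deletes in every tissue, so these sorted cells came from mice that also lost Daxx outside the blood. For the KLS cells the labels name no Cre line, and the study describes Mx1Cre, induced by pI:pC, for its other KLS samples of that time. The labels give no age or sex, and a figure legend of the study lists a Daxx +/F control at 3 d.p.i. that the labels do not mark.

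Daxx is a chaperone that places the histone variant H3.3, mostly at repeats and other silent chromatin. An ATAC-seq peak marks a stretch of DNA with few nucleosomes, usually a promoter or an enhancer, and enhancers are the more specific to a cell type. Pu.1, encoded by Spi1, is a transcription factor that opens enhancers of myeloid genes. A peak found in stem cells and in both downstream progenitors is one that stays accessible along the ordinary myeloid path.

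There was 1 peak list per group, so presence in a list has no spread between libraries and is given here as a description without a test. Intervals beside percentages are 95% Wilson intervals over peaks and cover counting error only. The KO lists of the progenitors were the shorter ones (50590 against 66070 intervals for CMPs and 49677 against 65306 for GMPs), whereas the Daxx-KO list was the longer one in LT-HSCs (70455 against 65455), in LT-HSCs at 3 d.p.i. (44326 against 36949) and in KLS cells (44694 against 33325), the last 2 with 3 Daxx-KO libraries against 2. List length and genotype cannot be told apart in the progenitors. With the Daxx-WT CMP and GMP lists shortened to their widest intervals, as many as in the KO list of the same cells, 1150 peaks met the rule, 3.56% of 32298 shared peaks. Fewer cells with an open site and a site less open in each cell cannot be told apart in bulk libraries either.

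Marker genes were checked by a peak within 1000 bp of a start. Of 8 stem cell markers, 8 had a start peak in both LT-HSC lists of 3 weeks, 6 and 8 in the Daxx-WT and Daxx-KO LT-HSC lists at 3 d.p.i., and 5 to 8 in the other lists. Mecom and Hlf, stem cell regulators, had one in all 11 lists, whereas Slamf1, which encodes the CD150 used in the LT-HSC sort, had none in the Daxx-WT list at 3 d.p.i., the GMP lists or the KLS lists. Of 8 markers of myeloid progenitors, 7 to 8 had a start peak in the CMP and GMP lists and 3 to 5 in the others, with Csf3r and Gfi1 in all 11. Elane, a neutrophil granule protease gene, had a start peak in the GMP lists of both genotypes alone, and Ms4a3, a progenitor gene, in the CMP and GMP lists of both genotypes alone. The starts of Cd3e, Cd8a and Ncr1 (T and NK cells), Cd79a and Ms4a1 (B cells), Hbb-bt, Hba-a1 and Alas2 (erythroid cells) and Ly6g, Cxcr2 and C1qa (mature myeloid cells) had a peak in 0 of the 11 lists. Of the 6 genes on each list of markers of other cells, 1 to 2 of the mature neutrophil and macrophage genes, 2 to 4 of the B cell genes, 1 to 2 of the T and NK cell genes and 1 to 3 of the erythroid genes had a start peak in any one list, and their part in the results was not tested. The starts of Daxx and Spi1 had a peak in all 11 lists, and 0 of their 1 and 4 shared peaks were lost peaks.

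The sequences of 4 lost peaks of at most 300 bp are shown as examples and do not stand for the whole set (mm10, plus strand, sequence of GRCm38). Capitals mark matches, on either strand, to any of 7 short letter patterns of blood transcription factors: GAGGAAGT for Pu.1, TGANTCA for AP-1, TGTGGTT for Runx, AGATAAG for factors of the Gata family, TTGCNNCAA for C/EBP, CCGGAAGT for other Ets factors and AGGGGGCG for Ctcf. The first, in an intron with 4930412L05Rik as the nearest start (chr4:53210754-53211047), had no interval in any of the 6 lists that the rule did not use, and held the Pu.1 letters. The second, between genes with Usp3 as the nearest start (chr9:66616915-66617214), was found again in Daxx-KO LT-HSCs alone. The third, 16121 bp from the start of AC166654.1 (chr17:31805647-31805946), held the Pu.1 letters and was found again in Daxx-KO LT-HSCs and Daxx-KO KLS cells. The fourth, in an intron 2116 bp from a start of Arhgef7, a gene for a guanine nucleotide exchange factor (chr8:11755905-11756201), held the Ctcf letters and was found in Daxx-KO LT-HSCs alone. No lost peak of this size outside untranslated regions was in all 6 lists.
Absent from the 6 other lists (4930412L05Rik): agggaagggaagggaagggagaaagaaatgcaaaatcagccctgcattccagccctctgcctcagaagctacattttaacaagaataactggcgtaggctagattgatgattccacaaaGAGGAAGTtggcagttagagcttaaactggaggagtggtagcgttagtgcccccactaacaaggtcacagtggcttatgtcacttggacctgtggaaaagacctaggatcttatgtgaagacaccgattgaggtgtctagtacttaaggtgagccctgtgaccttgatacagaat
Found in Daxx-KO LT-HSCs alone (Usp3): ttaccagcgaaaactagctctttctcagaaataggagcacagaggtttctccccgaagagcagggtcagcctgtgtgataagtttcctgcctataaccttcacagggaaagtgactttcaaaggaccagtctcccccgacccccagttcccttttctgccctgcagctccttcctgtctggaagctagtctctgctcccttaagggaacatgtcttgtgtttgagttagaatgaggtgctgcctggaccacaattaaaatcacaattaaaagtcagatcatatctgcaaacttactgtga
With the Pu.1 letters (AC166654.1): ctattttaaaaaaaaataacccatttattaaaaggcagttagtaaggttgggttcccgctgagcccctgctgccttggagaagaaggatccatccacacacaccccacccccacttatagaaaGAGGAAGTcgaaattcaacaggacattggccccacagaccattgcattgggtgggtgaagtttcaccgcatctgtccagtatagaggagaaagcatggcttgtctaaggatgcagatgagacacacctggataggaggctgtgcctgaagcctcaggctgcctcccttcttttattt
With the Ctcf letters (Arhgef7): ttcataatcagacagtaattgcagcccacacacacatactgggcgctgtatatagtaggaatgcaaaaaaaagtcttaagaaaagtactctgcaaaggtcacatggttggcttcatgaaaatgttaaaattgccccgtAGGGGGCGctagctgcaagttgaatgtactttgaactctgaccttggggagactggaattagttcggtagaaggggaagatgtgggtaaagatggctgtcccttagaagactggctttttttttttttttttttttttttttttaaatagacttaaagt

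Lost peaks were narrow. Their median width was 512 bp, with quartiles of 369 and 717 bp, against 832 bp (608 and 1122 bp) for kept peaks. Width goes with detection, which the rule used. Of 689 shared peaks under 300 bp, 228 (33.1%) were lost peaks, and of 2575 shared peaks of 1500 bp or more, 33 (1.28%) were. Peaks absent from a single Daxx-KO progenitor list lay in between, with medians of 555 bp for CMPs and 597 bp for GMPs. The lost peaks overlapped intervals with a median width of 467 bp in the Daxx-WT GMP list and 775 bp in the Daxx-WT LT-HSC list, against 504 and 765 bp for kept peaks of the same width. Intervals of the LT-HSC list were wider at all loci together, with a median of 889 bp against 651 bp in the CMP list.

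**Figure D1:**
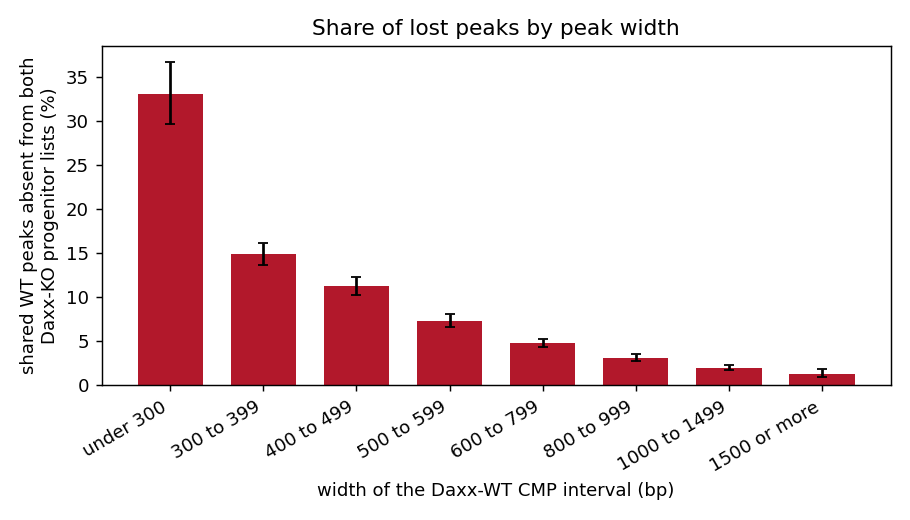
Bars give the percentage of shared Daxx-WT peaks that were absent from both Daxx-KO progenitor lists (y axis) by width of the Daxx-WT CMP interval in bp (x axis), with 95% Wilson intervals. The share was 33.1% under 300 bp and 1.28% at 1500 bp or more.

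The 5 widest lost peaks were between 2183 and 2282 bp. Of these, 4 lay at a transcription start or within 734 bp of one: Mcf2 (2264 bp), a guanine nucleotide exchange factor, Mir193b (2251 bp), a microRNA gene, Map1b (2248 bp), a microtubule-associated protein, and Tmem121b (2183 bp). The widest was 12724 bp from the nearest start, that of n-R5s23, on chromosome 18. All 5 had an interval in the Daxx-KO LT-HSC list and none had one in the DKO KLS list. The peak at Mir193b was also found in Daxx-WT and Daxx-KO LT-HSCs at 3 d.p.i., with a fold enrichment over background of 3.46 and 4.18, and in both genotypes of KLS cells.

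The edge of the rule was thin at few loci. The lost peak nearest to an interval of a Daxx-KO progenitor list lay 48 bp from it (646 bp wide, 926 bp from a start of Rps6ka3, a ribosomal S6 kinase) and the next lay 54 bp from it (203 bp wide, nearest start Bptf). On the other side, the shared peaks with the least overlap that counted as present shared 26 bp (near Sema4a) and 30 bp (near Kazn) with a Daxx-KO interval. The smallest overlaps with a Daxx-WT list that counted were 4 bp (AC090881.1) and 9 bp (4930594C11Rik). Of the lost peaks, 106 (4.57%) lay under 250 bp from a Daxx-KO progenitor interval, 340 (14.6%) under 1000 bp, and the median distance was 5794 bp.

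The first question was whether Daxx-KO stem cells had these peaks. Of the 2321 lost peaks, 2146 (92.5%, 91.3 to 93.5%) had an interval in the Daxx-KO LT-HSC list, which came from the same experiment and was not used to choose them. Kept peaks weighted to the same widths, in bins of 50 bp, had one in 97.6% of cases, and 97.7% of all shared peaks did. The median width of the Daxx-KO LT-HSC interval was 851 bp at lost peaks and 847 bp at kept peaks of the same CMP width. In the Daxx-KO LT-HSC list the difference from kept peaks was -5.13 points (-6.27 to -4.12).

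In LT-HSCs at 3 d.p.i., 792 lost peaks (34.1%, 32.2 to 36.1%) had an interval in the Daxx-WT list and 1154 (49.7%, 47.7 to 51.8%) in the Daxx-KO list. Kept peaks of the same width had one in 70.9% and 82.1%, and all shared peaks in 74.8% and 83.6%. In KLS cells, 580 lost peaks (25%, 23.3 to 26.8%) were in the Daxx-WT list and 1006 (43.3%, 41.3 to 45.4%) in the Daxx-KO list, against 60.3% and 78.8% of kept peaks of the same width and 69.4% and 82.6% of shared peaks. In DKO KLS cells, 112 lost peaks (4.83%, 4.03 to 5.77%) were found, against 33.0% of kept peaks of the same width and 43.9% of shared peaks. Lost peaks were therefore less often present than kept peaks of their width in wild-type lists as well as in Daxx-KO lists, with differences of -36.8 and -35.3 points in the Daxx-WT lists and of -32.3 and -35.4 points in the Daxx-KO lists. Kept and lost peaks were themselves chosen by detection in both Daxx-KO progenitor lists, and only width was matched here, not height. These 5 lists came from another protocol and their read totals are not known. The part of any of these in the differences was not tested.

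**Figure D2:**
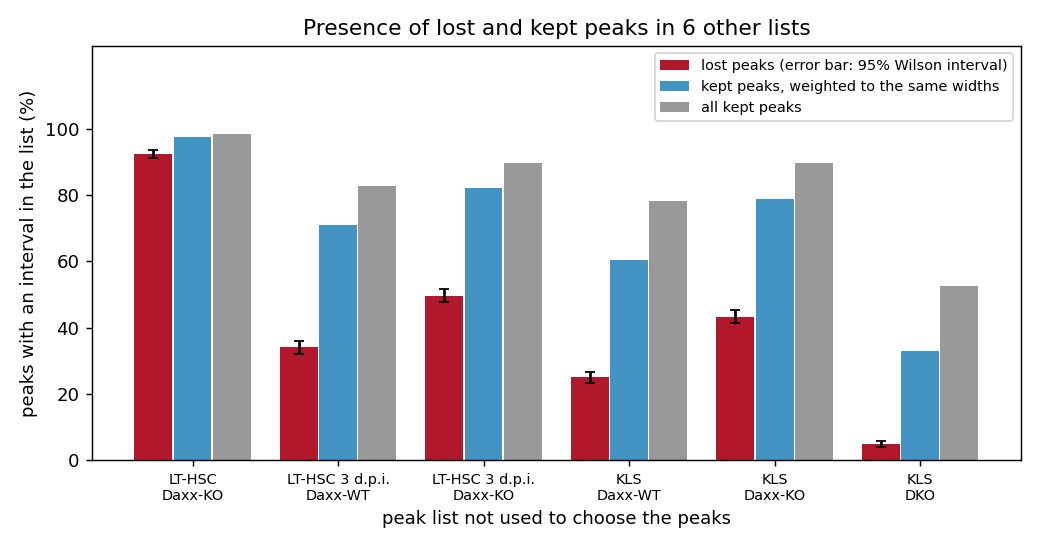
Bars give the percentage of peaks with an interval (y axis) in each of the 6 lists not used by the rule (x axis), for lost peaks with 95% Wilson intervals, kept peaks weighted to the same widths, and all kept peaks. Lost peaks were at 92.5% in Daxx-KO LT-HSCs and between 4.83% and 49.7% in the other 5 lists, below kept peaks of the same width in each.

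Across the 6 lists, 39 lost peaks (1.68%) were in all 6 and 118 (5.08%) in none, against 26.5% and 1.04% of kept peaks of the same width. The most frequent pattern was an interval in Daxx-KO LT-HSCs alone, with 534 lost peaks (23.0%) against 4.98% of kept peaks of the same width. An interval in Daxx-KO LT-HSCs and in Daxx-KO LT-HSCs at 3 d.p.i. alone came next, with 259 (11.2%). A further 202 (8.70%) were in every list but that of DKO KLS cells, a pattern of 20.9% of kept peaks of the same width. In between, 578 lost peaks were in 1 list, 577 in 2, 443 in 3, 335 in 4 and 231 in 5.

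The gap to kept peaks was present at every width and both near to and far from genes. Of 684 lost peaks under 400 bp, 15.1% had a Daxx-WT KLS interval against 37.5% of kept peaks of the same width, and among 219 of 1000 bp or more, 45.2% did against 93.4%. In the DKO KLS list these wide lost peaks were found in 8.22% and wide kept peaks in 77.5%. Within 1000 bp of a transcription start, 51.1% of 491 lost peaks had a Daxx-WT interval at 3 d.p.i., against 86.2% of kept peaks of the same width. Farther away, 29.6% of 1830 lost peaks did, against 65.8%.

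A second question was whether lost peaks that the wild-type list of another experiment did hold were missing again from its knockout list. At 3 d.p.i., 639 of the 792 lost peaks in the Daxx-WT LT-HSC list (80.7%, 77.8 to 83.3%) were also in the Daxx-KO list. Of kept peaks of the same width 94.8% were, and of those also weighted to 5 groups of wild-type fold enrichment (height groups) 91.1%. The height groups were cut at values of the lost peaks, and the highest had no upper limit. Height was thus matched coarsely, and kept peaks could still be higher within a group. In KLS cells, 438 of 580 (75.5%, 71.9 to 78.8%) were also in the Daxx-KO list, against 93.8% at the same width and 91.8% at the same width and height group. Over all shared peaks, 4.27% of those in the Daxx-WT list at 3 d.p.i. and 4.54% of those in the Daxx-WT KLS list lacked a Daxx-KO interval. Against kept peaks of like width and height group, the differences were -10.5 and -16.3 points. The Daxx-KO groups had 3 libraries against 2 and longer lists, and the part of either was not tested. Each of the 5 lists was also shortened to the 22156 intervals of highest fold enrichment, the length of the shortest, that of DKO KLS cells. The difference from kept peaks of the same width then went from -14.1 to -24.0 points at 3 d.p.i. In KLS cells it went from -18.3 to -35 points. Lost peaks had lower fold enrichment than kept peaks, so this cut bears more on them, and height was not matched here. The cut therefore cannot separate list length from height.

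The DKO list held fewer still. With 22156 intervals it was also the shortest of the 11 lists, against 33325 for Daxx-WT and 44694 for Daxx-KO KLS cells. The part of list length was not tested. Of the 580 lost peaks with a Daxx-WT KLS interval, 66 (11.4%, 9.05 to 14.2%) had a DKO interval, against 49.8% of kept peaks of the same width and 42.0% of those of the same width and height group. Of the 1006 lost peaks with a Daxx-KO KLS interval, 86 (8.55%, 6.97 to 10.4%) had one, against 41.6% and 35.6%. The background was large here, since 40.8% of shared peaks in the Daxx-WT KLS list and 48.3% of those in the Daxx-KO KLS list lacked a DKO interval. The Daxx-KO and DKO comparisons use the same Daxx-WT KLS list.

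**Figure D3:**
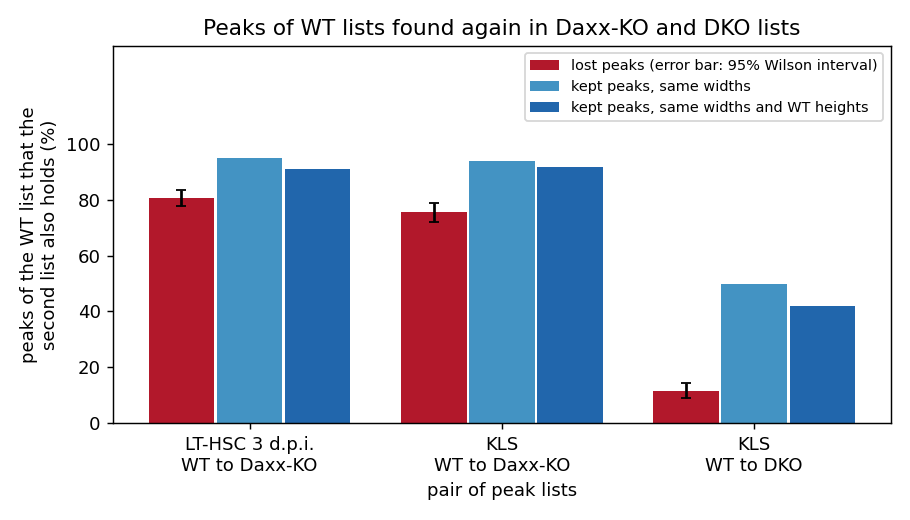
Bars give the percentage of peaks of a wild-type list that the Daxx-KO or DKO list of the same cells also held (y axis) for 3 pairs of lists (x axis), for lost peaks with 95% Wilson intervals, kept peaks of the same widths, and kept peaks of the same widths and wild-type fold enrichment. Lost peaks were at 80.7%, 75.5% and 11.4%, below both sets of kept peaks in each pair.

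Some lost peaks were called in the knockout list alone. Of the 1529 lost peaks without a Daxx-WT interval at 3 d.p.i., 515 (33.7%) had a Daxx-KO interval, and of the 1741 without a Daxx-WT KLS interval, 568 (32.6%) had a Daxx-KO one. Kept peaks of the same width gained an interval in 52.7% and 59.9% of such cases.

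Where lost peaks were called, they were low. Their fold enrichment, as the lists give it for each peak, had a median of 4.46 (Daxx-WT) and 4.73 (Daxx-KO) for LT-HSCs at 3 d.p.i., against 5.92 and 6.33 for kept peaks of the same width. In KLS cells the medians were 4.51 in Daxx-WT, 5.07 in Daxx-KO and 3.57 in DKO, against 5.34, 6.10 and 4.58. The median lost peak stood above 21.7% of all intervals of the Daxx-WT list at 3 d.p.i. and above 15.8% of those of the DKO KLS list. Where both genotypes had an interval, the height was higher in Daxx-KO at 438 of 639 lost peaks at 3 d.p.i. (median log2 ratio 0.12, and 0.13 for kept peaks of the same width) and at 360 of 438 in KLS cells (0.21 and 0.26). Lost peaks called in both genotypes were therefore more often the higher ones in Daxx-KO, as kept peaks were (76.5% and 87.9%). In DKO the median log2 ratio was -0.17 over 66 lost peaks and -0.28 for kept peaks.

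Lost peaks lay farther from genes' starts than kept peaks of their width. Of the 2321, 491 (21.2%, 19.5 to 22.9%) lay within 1000 bp of a start, against 27.9% of kept peaks of the same width and 46.2% of all kept peaks. A start lay inside 260 (11.2%), against 18.1%. Introns held 885 (38.1%, 36.2 to 40.1%), against 31.4%, whereas the shares in exons (9.39% against 8.34%) and between genes (31.3% against 32.3%) were close, with the kept value inside the interval in both cases. The median distance to a start was 6729 bp, against 4172 bp, and 143 lost peaks (6.16%) were over 50000 bp away, against 3.54%. Read the other way, 2.99% of the 16441 shared peaks near a start and 7.74% of the 23633 farther away were lost peaks.

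Their sequence was less rich in CpG, a dinucleotide that is dense at many unmethylated promoters. Lost peaks had 1.89 CpG per 100 bp (1.82 to 1.97, SD 1.90) against 2.34 in kept peaks of the same width, and a GC content of 49.3% (49.0 to 49.6, SD 6.80) against 50.6%. By a common description of CpG islands, a CpG frequency of at least 0.6 of that expected and a GC content of at least 50%, 151 lost peaks (6.51%) were CpG-rich, against 12.8% of kept peaks of the same width and 29.8% of all kept peaks. Repeats, as soft-masked letters of the reference, covered 15.3% of lost peaks (14.7 to 16.0, SD 15.3) against 14.2%. Repeats made up 50% or more of 97 lost peaks (4.18%, 3.44 to 5.07%), against 3.48%, and 281 (12.1%, 10.8 to 13.5%) held none, against 13.3%. In the central 200 bp the difference in repeats was 2.19 points (13.4% against 11.2%), against 1.18 over whole peaks.

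Letter patterns of transcription factors were searched in the central 200 bp on both strands. GAGGAAGT, the Pu.1 letters, was in 134 lost peaks (5.77%, 4.90 to 6.80%), against 7.43% of kept peaks of the same width and 5.78% of shared peaks. AGGGGGCG, the Ctcf letters, was in 73 (3.15%, 2.51 to 3.94%), against 4.56% and 3.87%. CCGGAAGT, the Ets letters of promoters, was in 14 (0.603%, 0.360 to 1.01%), against 1.01% and 1.60%. For the letters of AP-1 (6.94% against 7.86%), Runx (7.24% against 7.73%), Gata (2.54% against 1.99%) and C/EBP (1.64% against 1.86%) the kept value lay inside the interval of the lost peaks. Against kept peaks of any width the sign of the Pu.1 difference turned, from -1.65 to 0.137 points, as it did for AP-1, Runx and C/EBP. The Pu.1 and Ets patterns share letters but cannot match at the same place.

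By nearest start, the lost peaks fell to 2145 genes of 21446 with a shared peak, and 1991 of these had a single one. Dennd4a, Elmo1 and Pde4d had 4 each. Elmo1, an adaptor of Rac activation in cell movement and engulfment, had 19 shared peaks, so 15 others kept at least 1 Daxx-KO progenitor interval. Its 4 lost peaks were 310 to 516 bp wide. Of these, 3 had an interval in both Daxx-KO lists of LT-HSCs, and the fourth had no interval in any of the 6 lists. Pde4d, a cAMP phosphodiesterase, had 38 shared peaks, and its 4 lost peaks lay in introns 20104 to 61584 bp from a start. The widest of them (1426 bp) had an interval in Daxx-WT and Daxx-KO KLS cells. Dennd4a, an activator of Rab GTPases, had 8 shared peaks, so 4 of the 8 were lost peaks.

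Another 16 genes had 3 lost peaks, of which 7, taken in order of name, are described. Dab2ip, a regulator of Ras, had 3 of 11 shared peaks among the lost, 1 at an alternative start and 2 in introns, and all 3 had a Daxx-KO LT-HSC interval. Celf4, an RNA-binding protein mostly of neurons, had 3 of 4 on chromosome 18. The other 5 of the 7 were predicted or non-coding genes: Gm10421, Gm46560 and Gm47125 (3 of 3 each), Gm15201 (3 of 5) and Gm3150 (3 of 6). The 2 lost peaks near Gm47125 at 42575688 and 42576152 on chromosome 13 shared 1 wide interval of 861 bp in the Daxx-WT LT-HSC list, an instance of neighbours that are not independent. For 603 genes every shared peak was a lost peak, in all but 26 of them because the gene had 1 shared peak. Among the 26 were Cd247, a signalling chain of the T-cell receptor, and Lpar3, a lysophosphatidic acid receptor, with 2 of 2 each. These 2 were picked from the 26 after their values were seen.

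Gene lists of blood biology were assigned by the nearest start of any transcript. Over 274 listed genes together, 31 of 642 shared peaks (4.83%, 3.42 to 6.77%) were lost peaks, close to the 5.79% over all shared peaks. With the starts of protein-coding transcripts alone, 59 lost peaks fell to listed genes. The number of shared peaks at listed genes in that setting is not available, so this count has no share to compare. The overall share lay inside the interval of every list, and the highest shares rested on few peaks.

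Among stem cell and lineage regulators, 1 of 31 shared peaks of the stem cell factor heptad was lost, an exon peak of 304 bp near Tal1, which specifies blood and erythroid fate. It had no interval in any of the 6 other lists. Of 38 shared peaks of self-renewal factors, 2 were lost: 1 of 784 bp, 153 bp from a start of Mycn, a growth-promoting transcription factor, and 1 of 545 bp, 94529 bp from Mllt3, which sustains stem cells in culture. The Mycn peak was found in Daxx-KO LT-HSCs alone and the Mllt3 peak in none of the 6 lists. Erythroid and megakaryocyte regulators had 4 of 37 (10.8%, 4.29 to 24.7%): 1 each at Zfpm1, the cofactor of Gata1, Nfe2, an activator of globin and platelet genes, Vwf, a platelet adhesion protein, and Tal1. The Zfpm1 peak was in all 6 other lists.

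Among myeloid genes, granulocyte and monocyte fate factors had 3 of 58 (5.17%). Of these, 2 lay 48168 and 54827 bp from a start of Irf8, the factor that directs monocyte and dendritic fate, and both had intervals in the Daxx-KO lists of LT-HSCs at 3 weeks and of KLS cells and none in the wild-type lists at 3 d.p.i. and of KLS cells. The third, 1380 bp wide, held a start of Zeb2, a repressor active in monocytes, and was in every other list but that of DKO KLS cells. Late neutrophil genes had 1 of 11 (Mmp8, a collagenase of granules) and cytokine receptors 1 of 24 (Ifngr1, the interferon-gamma receptor). The C/EBP family had 0 of 9, which allows a share of up to 29.9%, and primary granule genes had 0 of 12 (up to 24.2%). Signalling genes of leukocytes had 8 of 100 (8%, 4.11 to 15%), with 2 each at Inpp5d, a lipid phosphatase that dampens signalling, and Syk, a kinase of immune receptors, and 1 each at Fyb (781 bp), an adaptor, and Lyn (704 bp), a Src-family kinase.

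Inflammatory and lymphoid genes were near the overall share. Interferon-stimulated genes had 1 of 53 (1.89%, 0.334 to 9.94%, Parp14), nucleic acid sensors 2 of 44 (Aim2, which senses DNA in the cytosol, and Samhd1, a nucleotide hydrolase), and cytokines and chemokines 2 of 31 (Ccl3 and Cxcl2, which attract monocytes and neutrophils). Lymphoid genes had 3 of 44 (Cd79b, Bcl11a and Notch1). AP-1 factors had 0 of 23 (up to 14.3%) and genes of cell cycle entry and arrest 0 of 42 (up to 8.38%). Among partners of Daxx, H3.3 and PML bodies 2 of 29 were lost, 1 of 580 bp, 385 bp from a start of Dek, which binds H3.3, and 1 of 367 bp, 8331 bp from H3f3a, which encodes H3.3. DNA methylation and H3K9 silencing genes had 1 of 43 (Dnmt3a, a de novo DNA methyltransferase, 1204 bp wide), and housekeeping genes had 1 of 36 (Rplp1, a ribosomal protein). Among the marker lists, stem cell markers had 1 of 21 (Mllt3), mature myeloid markers 1 of 10 (C1qa), and markers of myeloid progenitors, B cells, and T and NK cells 0 of 10, 2 and 6.

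By chromosome, the share of shared peaks that were lost ran from 4.97% on chromosome 1 (4.19 to 5.89%) to 8.57% on chromosome X (67 of 782, 6.80 to 10.7%). Chromosome 13 followed with 7.01% (5.92 to 8.27%). Chromosome 17, which carries Daxx, had 5.67% (4.73 to 6.78%), and chromosome Y had 0 of 12. The methods of the study describe mice of both sexes, and the labels give no sex per library. Without the sex chromosomes 2254 peaks met the rule.

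Read numbers per library came from 3 tables of sites. Each lists only sites that the authors selected for a difference between the same libraries, so no test was made on them. With 3 libraries against 2, an exact permutation test of 1 site cannot give a two-sided p below 0.1, and with 2 against 2 it cannot go below 0.333. The values are reads divided by a constant of each library, compared as log2(scaled reads + 1), so a difference understates the change at low sites. The headers show 4.21 to 16.00 reads per 600 bp window on average, with the lowest mean in 1 Daxx-KO library of each experiment (4.21 at 3 d.p.i. and 4.54 in KLS cells).

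Of the lost peaks, 85 (3.66%, 2.97 to 4.51%) met a listed site at 3 d.p.i., against 3.60% of kept peaks of the same width and 4.51% of shared peaks. A site met or covered a peak if they overlapped by at least 1 bp, so its reads could lie partly outside the peak. Lost and kept peaks differed in direction. Sites lower in Daxx-KO covered 55 lost peaks (2.37%, 1.83 to 3.07%), against 1.21% of kept peaks of the same width and 1.50% of shared peaks. Sites higher in Daxx-KO covered 30 (1.29%, 0.907 to 1.84%), against 2.40% and 3.02%. Thus 55 of 85 sites at lost peaks (64.7%) were lower, against 437 of 1436 (30.4%) at kept peaks of any width and 70.9% of all 11927 listed sites. Counts and medians of sites at kept peaks, here and below, were not weighted to width.

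In KLS cells the direction was the same. A listed site of the Daxx-KO table covered 110 lost peaks (4.74%, 3.95 to 5.68%), against 4.25% of kept peaks of the same width and 5.03% of shared peaks. Lower sites covered 77 (3.32%, 2.66 to 4.13%), against 1.93% and 2.34%, and higher sites 33 (1.42%, 1.01 to 1.99%), against 2.33% and 2.70%. Of the sites at lost peaks 70.0% were lower, against 43.2% at kept peaks of any width and 80.9% of all 17311 sites. In the DKO table, 439 lost peaks (18.9%, 17.4 to 20.6%) met a site, against 21.4% of kept peaks of the same width and 25.6% of shared peaks. Lower sites covered 381 (16.4%, 15 to 18%), against 18% and 22.1%, and higher sites 60 (2.59%), against 3.46% and 3.64%. Of the sites at lost peaks 86.3% were lower in DKO, the same percentage as at kept peaks of any width, whereas 27.9% of all 50928 sites were.

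The libraries of the groups stood apart at nearly every site. All 85 sites at lost peaks at 3 d.p.i., 109 of 110 in the Daxx-KO KLS table and all 439 in the DKO table had no overlap between groups, as did 99.5%, 99.6% and 100% (50909 of 50928) of all listed sites, so this says nothing particular about lost peaks. Over the 85 sites at 3 d.p.i., the median of log2(scaled reads + 1) was 5.90, 5.84 and 5.91 for the 3 knockouts and 6.26 and 6.23 for the 2 controls, a difference of -0.36. At sites of kept peaks, of any width, the Daxx-KO libraries were higher, by 0.33. Over the 110 KLS sites the medians were 5.15, 4.72 and 5.0 for the knockouts and 5.54 and 5.57 for the controls (-0.60), against 0.12 at kept peaks. Over the 439 DKO sites they were 5.17 and 5.33 against 6.04 and 6.04 (-0.79), and the difference was -0.80 at kept peaks. Scaling each library to the mean reads per window of the header instead moved these differences at lost peaks to -0.02, -0.12 and -1.47, with 55, 77 and 379 sites lower, as before. Kept peaks were not rescaled in this way, so the contrast with them is not known under it.

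**Figure D4:**
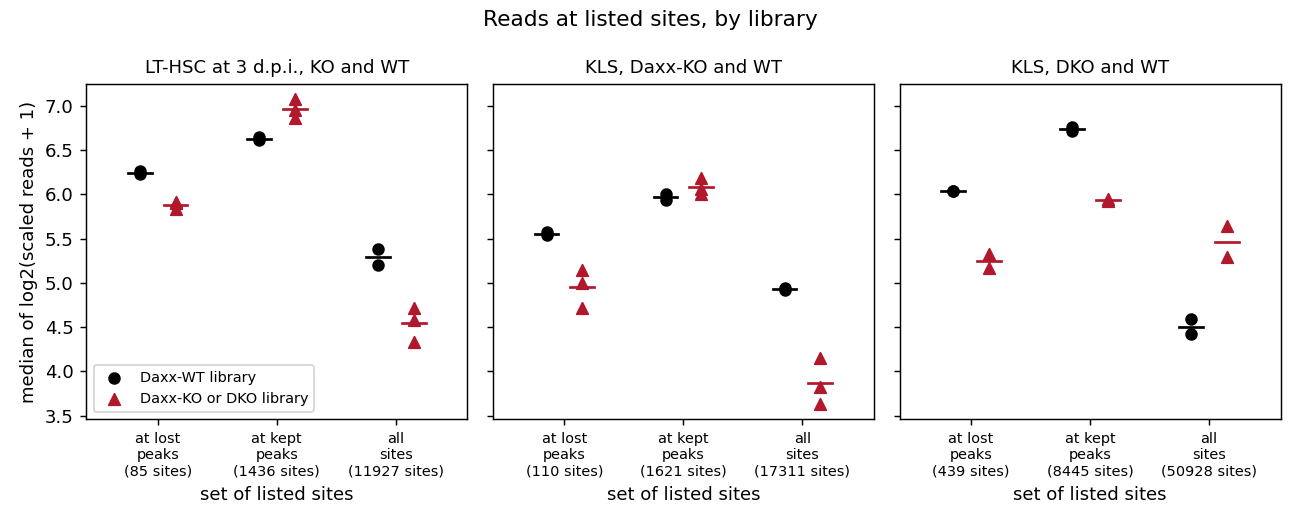
Points give each library's median of log2(scaled reads + 1) (y axis) over listed sites at lost peaks, at kept peaks of any width and over all listed sites (x axis), in the 3 tables, with short lines at the group means. At lost peaks the Daxx-KO or DKO libraries lay below the Daxx-WT libraries in each table, and at kept peaks the Daxx-KO libraries lay above them at 3 d.p.i. and in KLS cells.

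The tables at 3 d.p.i. and of Daxx-KO KLS cells share no library. In all, 12 lost peaks (0.517%, 0.296 to 0.902%) met a lower site in both, against 0.0449% of kept peaks of the same width and 0.0848% of shared peaks. A higher site in both was met by 1 lost peak, against 0.223% of kept peaks of the same width and 0.247% of shared peaks, and opposite sites by 1, against 0.0623% and 0.107%. These 12 were found after their values were seen. Of the 12, 7 held a transcription start, 8 had an interval in the Daxx-WT list at 3 d.p.i. and 5 in the Daxx-KO list, and 8 had one in the wild-type KLS list and 4 in the Daxx-KO one. On chromosome 12, 3 lay between 18609631 and 20929488, and 3 on chromosome 17 between 13052186 and 13337715.

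On chromosome 12, the peak at the start of Gm48398 (1454 bp, GC content 67.1%) had 171.60, 219.53 and 177.35 scaled reads (Daxx-KO) against 387.63 and 501.72 (Daxx-WT) for LT-HSCs at 3 d.p.i. The KLS values were 34.52, 16.62 and 19.75 (Daxx-KO) against 239.92 and 162.77 (Daxx-WT), log2 differences of -1.22 and -3.08. The peak at the start of Gm48693 (1178 bp, GC content 67.9%) had KLS values of 15.59, 10.50 and 5.64 (Daxx-KO) against 101.26 and 84.82 (Daxx-WT), a difference of -3.11, with -1.07 at 3 d.p.i. The sites at the starts of both predicted genes had fewer reads in each Daxx-KO library than in either Daxx-WT library, and were selected for a difference. Near 3110053B16Rik, 7576 bp from its start, the differences were -1.14 and -2.49.

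On chromosome 17, the peak at a start of Gpr31b, a receptor for a fatty acid product, had 33.04, 25.77 and 25.34 scaled reads (Daxx-KO) against 49.58 and 72.21 (Daxx-WT) at 3 d.p.i. (-1.08) and differed by -1.55 in KLS cells. The peaks near AC166360.3 and AC166110.4 differed by -1.21 and -1.34 at 3 d.p.i. and by -2.17 and -1.43 in KLS cells. Gpr31b and AC166360.3 had no interval in any of the 6 lists, although the site tables gave reads there in every library.

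The other 6 lay apart from each other. The peak at the start of Zfp951, a zinc finger gene, had 63.32, 79.22 and 88.67 scaled reads (Daxx-KO) against 196.07 and 157.55 at 3 d.p.i. (-1.19), and its KLS values were 47.88, 14.87 and 31.04 against 124.98 and 168.50 (-2.32). At the start of Adcy8, an adenylyl cyclase, a peak of 2072 bp differed by -0.64 and -1.17. Gm13162 (-0.68 and -1.31), 2310001H17Rik (-0.76 and -0.77), Gm14113 (-0.65 and -0.77) and a start of Gse1, part of a histone deacetylase complex (-0.48 and -0.52), differed less. In every one of the 12 the highest Daxx-KO library lay below the lowest Daxx-WT library in both tables. The groups did not overlap, in one direction or the other, at 99.5% (3 d.p.i.) and 99.6% (KLS) of all listed sites. Such separation is thus nothing particular to the 12.

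**Figure D5:**
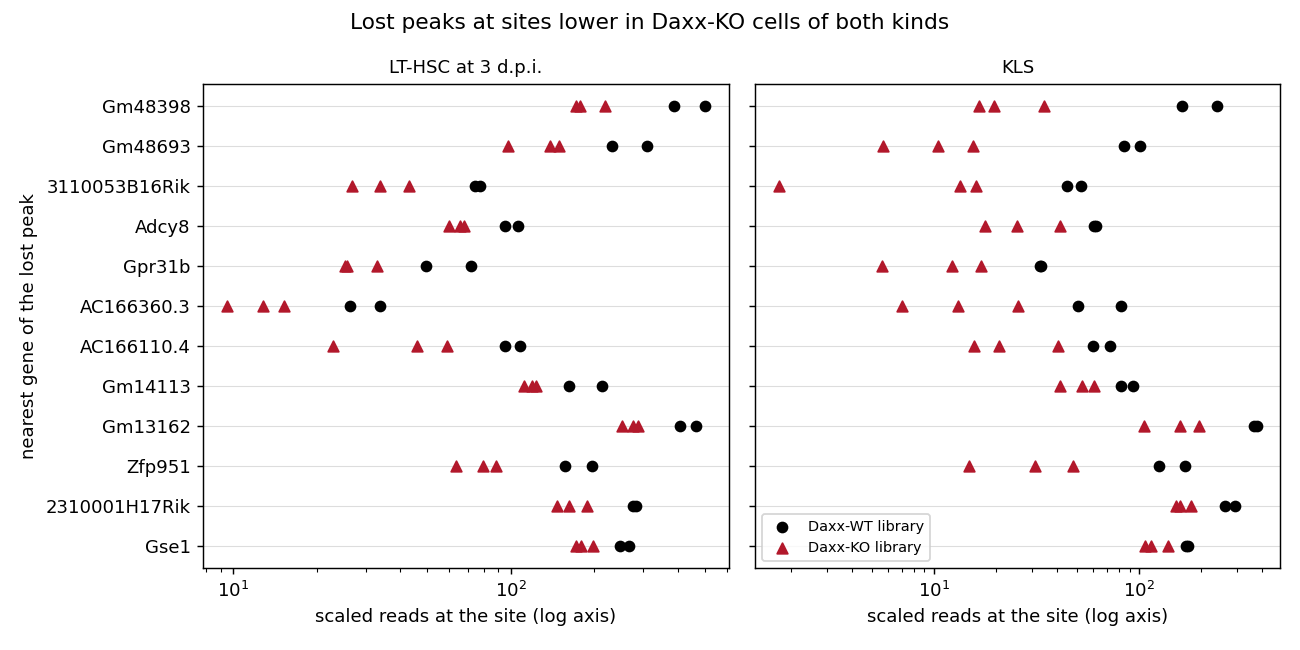
Points give scaled reads (x axis, log scale) in each library at 12 lost peaks (y axis, nearest gene) that met a site lower in Daxx-KO in both LT-HSCs at 3 d.p.i. (left) and KLS cells (right). The Daxx-KO libraries lay below the Daxx-WT libraries at all 12, and the distance was -3.11 on the log2 scale at Gm48693 in KLS cells and -0.48 at Gse1 at 3 d.p.i. Groups did not overlap at 99.5% (3 d.p.i.) and 99.6% (KLS) of all listed sites.

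The largest differences at sites that met a lost peak were, within each table, as follows. Some of these sites overlapped the lost peak at an edge only, such as those near Nptxr, Gm47125, Srsf3, Leprot and Gm13692. Most of the length of these sites lay outside the lost peak, and where their reads lay within the site is not known. At 3 d.p.i., besides AC166110.4 and Gm48398, the third lowest was a site of 600 bp in an intron, nearest to the start of Nptxr, a neuronal pentraxin receptor, with 21.11, 10.50 and 21.11 (Daxx-KO) against 54.09 and 30.01 scaled reads (-1.22). The highest was near Aftph, an adaptor of vesicle traffic, 36737 bp from its start, with 125.72, 115.49 and 122.46 against 63.10 and 34.70 (1.35). Gm6970 (1.30) and Gm47125 (1.27) followed. The Gm47125 site met 1 of the 3 lost peaks of that gene.

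In KLS cells the lowest in Daxx-KO was a site of 1300 bp, 12736 bp from the start of Unc93a, a membrane protein gene on chromosome 17, with 13.36, 5.25 and 1.88 scaled reads against 48.35 and 87.12 (-3.37). The lost peak it covered lay at 13144546 to 13145328, between the lost peaks near Gpr31b and AC166360.3. Gm48693 and Gm48398 came next. The highest were near Gm44753 (1.32), Srsf3, a splicing factor (1.26), and Mllt3 (1.18). The Srsf3 site ended at 29044500 on chromosome 17, and the lost peak it met began at 29044495. The Mllt3 site had values of 48.99, 42.86 and 39.51 (Daxx-KO) against 19.16 and 18.34 (Daxx-WT). This lost peak of the progenitors was thus higher in Daxx-KO KLS cells, at a locus with no interval in either KLS list.

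In DKO KLS cells the lowest was a site near Gm13655 on chromosome 2, with 2.12 and 1.87 (DKO) against 55.02 and 58.13 scaled reads in the wild type (-4.27). Gm12438 (-2.33) and Gm48693 (-2.31) followed, the latter with 15.91 and 18.74 scaled reads against 98.51 and 81.16. The highest were near Leprot, which regulates surface receptors (26.51 and 46.84 against 7.10 and 7.68, or 2.11), Gm13692 (1.87) and Rnf121, a ubiquitin ligase (1.70). The DKO and Daxx-KO tables use the same Daxx-WT KLS libraries.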

How the data were processed

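The peaks, gene lists and comparisons were chosen with earlier results of these data known. The study's full account of its sequence analysis was not used here. The authors' processing notes name STAR 2.5.3 and bedtools among their tools, and the roles of these tools are not given in the sources used here. The authors deposited 11 peak lists on mm10, 1 per group (24 libraries). Of these, 6 hold positions alone, and 5 are conservative lists of reproducible peaks in which the authors gave each peak a ratio, read here from the file format as fold enrichment over background. The authors deposited 3 tables of sites from diffReps 1.55.6. Per the file headers, their signal is reads per library divided by a normalisation constant. Their fold changes, p-values and adjusted p-values between groups are the authors' own comparisons and were not used. Read totals of the libraries are not known, so depth enters only as mean reads per window.

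Lists were joined by an overlap of at least 1 bp, repeated intervals once with their highest fold enrichment. All 549003 intervals lay within the ends of the 21 chromosomes of GRCm38. Kept peaks were weighted to the widths of lost peaks in bins of 50 bp, and for height to 5 groups of fold enrichment within bins of 100 bp of width. The height groups were cut at values of the lost peaks, and the highest had no upper limit. Starts and gene parts came from GENCODE release M 21. Named loci followed a rule: the 10 genes with most lost peaks, up to 4 genes per list, the 5 widest, the 3 largest site differences per direction and table, and the loci at the edge of the rule, with any other said to be chosen after its values were seen. Sequences over untranslated regions were not shown. Some named items are not reported here. Of the libraries at 3 d.p.i., column names give the group but no number. Site values used log2(scaled reads + 1), a pseudocount of 1. The overlap and weighting steps were tested on simulated data. Alternatives changed 1 choice at a time. The tools were samtools 1.23.1 and Python 3.11.15 with pysam 0.24.0, scipy 1.17.1, matplotlib 3.10.9, pandas 2.3.3 and numpy 2.4.6. With 1 list per group, precision is limited, and Wilson intervals at 95% cover counting alone.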

Additional observations from a re-analysis of the deposited data

Results flagged for a closer look

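One lost peak met sites of opposite direction in the 2 experiments that share no library, with every library of each group on one side. It is the widest lost peak (2282 bp), on chromosome 18, nearest to the start of n-R5s23, a 5S ribosomal RNA gene. At 3 d.p.i. the site had 157.84, 175.62 and 141.46 scaled reads (Daxx-KO LT-HSCs) against 109.30 and 94.72 (Daxx-WT), a log2 difference of 0.63. In KLS cells the values of the site were 43.42, 33.24 and 40.45 (Daxx-KO) against 72.07 and 96.29 (Daxx-WT), a log2 difference of -1.08. The difference between the experiments was not tested.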

How the results depend on the processing

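Over 35 results and 151 alternatives, 46 values moved beyond the error of the reported value (95% interval of a percentage, mean or median, 1.5 times a count, or the SD between libraries of a site value), 4 changed sign and the others stayed within it. No paired analysis was possible because the results come from no test, and the peak lists carry no libraries. The rule gave 1150 peaks with shortened wild-type lists (3.56% of shared peaks), 5.53% of shared peaks with no Daxx-KO interval within 250 bp, and 5.55% counted on LT-HSC intervals. The median width became 693 bp with shortened lists, 461 bp on GMP intervals and 739 bp on LT-HSC intervals. The 5 scored lists shortened to the shortest gave differences from kept peaks of -31.5 (Daxx-WT at 3 d.p.i.), -27.4 (Daxx-WT KLS) and -28.3 points (Daxx-KO KLS). For wild-type intervals kept in Daxx-KO they were -24.0 and -35. This cut was by fold enrichment, which was lower at lost peaks. Within 250 bp the DKO value was -34.3.

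Without weighting by width, the differences in presence were -48.5 and -39.9 (3 d.p.i., Daxx-WT and Daxx-KO) and -53.3, -46.5 and -47.9 points (KLS, Daxx-WT, Daxx-KO and DKO), that for wild-type intervals kept in DKO -52.5, those in median fold enrichment -2.80, -3.01, -1.69, -2.15 and -1.93 in the same order, that near starts -25.1 points, GC -4.33, CpG -1.62, repeats 3.43, and the Ets letters -1.29 points. The letters of Pu.1, AP-1, Runx and C/EBP changed sign, to 0.137, 0.881, 0.569 and 0.229 points. With peaks present in either Daxx-KO progenitor list as kept, presence differed by -31.3, -27.1, -30.3, -29.7 and -24.1 points, the DKO share by -35.2, and fold enrichment by -1.47, -1.54 (3 d.p.i.) and -1.0 (Daxx-KO KLS). Within 2500 bp of a start the difference was -9.94 points. The central 200 bp gave GC -2.62, CpG -0.757 and repeats 2.19. Coding starts put 59 lost peaks at listed genes instead of 31, with no share available for that setting. The causes of these moves were not tested.

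At sites of lost peaks, scaling to the header mean gave -0.02 (3 d.p.i.), -0.12 (Daxx-KO KLS) and -1.47 (DKO). Leaving out each library in turn gave -0.37 to -0.34, -0.69 to -0.48 and -0.87 to -0.70. Leaving out a library could not change the sign of a site whose groups did not overlap. One peak list per group, and site tables that hold selected sites alone, limit all comparisons, and a lost peak may have had reads under the threshold of a list.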
